A study of Homo sapiens with 18 samples.

Results

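Among 18 RNA-sequencing libraries of the prostate cancer line 16D CRPC, the 3 libraries labelled OGDHL guide 2 in DMSO stood apart from all others. They were taken here as a group, by their labels, and set against the 3 control libraries in DMSO (6 of the 18 libraries). 16D CRPC is labelled as a prostate cancer cell line, and CRPC stands for castration-resistant prostate cancer, disease that grows when androgen is withdrawn. In the first group the cells had been infected with a lentivirus carrying CAS9 and the second of 2 guide RNAs against OGDHL, then kept in the vehicle DMSO for 6 weeks. In the control group the virus carried CAS9 and an AAVS guide, which cuts a safe-harbor site in the PPP1R12C gene, and the cells spent the same 6 weeks in DMSO. CAS9 is therefore common to both groups. Further libraries used for comparison were guide 1 in DMSO, and guide 2 and the control guide in 10 µM enzalutamide, an antiandrogen drug, with 3 libraries each. The labels do not say whether a guide group came from 1 clone or from a pool of cells, nor whether its 3 libraries are separate cultures. The p-values therefore stand for library-to-library spread alone, and this may be technical. Depth is unknown because the values are TPM, a share of all transcripts that is scaled by transcript length.

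OGDHL encodes a close relative of the E1 subunit of the 2-oxoglutarate dehydrogenase complex, an enzyme of the tricarboxylic acid cycle. Several programmes recur below. The transcription factor p53 is activated by DNA damage and other stress, and it raises the cell-cycle inhibitor p21 (gene CDKN1A) and a set of further targets; p21 blocks cyclin-dependent kinases, and genes of DNA replication and mitosis are then held down by repressor complexes that keep E2F and B-MYB/FOXM1 targets silent. DUX4 is a double-homeobox transcription factor of the early human embryo, normally silent in somatic cells, that switches on embryonic genes such as ZSCAN4, LEUTX, TRIM43 and the PRAMEF family.

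OGDHL (chr10:49734641-49762379, RefSeq GRCh38.p14) had 7.66, 8.84 and 7.93 TPM in the libraries labelled guide 2, against 5.609, 5.730 and 5.497 TPM in the control libraries in DMSO. All 3 guide 2 libraries were thus above all 3 controls, and the RNA was not lower where a knockout guide is labelled. The log2 change was 0.47 (standard error 0.10, limma adjusted p = 0.00051), and under quantile normalization it was 0.10 with an adjusted p of 0.3. A Cas9 cut need not lower the RNA of a gene, so its level does not test the edit. With guide 1 in DMSO the gene had 2.30, 2.71 and 3.75 TPM. In enzalutamide it had 5.20, 5.38 and 5.36 TPM in the libraries labelled guide 2 and 9.20, 9.81 and 9.23 TPM in the control libraries, so guide 2 stood below control there and above it in DMSO. That difference between the media was 1.19 on the log2 scale (adjusted p = 2.7e-06). OGDH, which encodes the widely expressed E1 subunit, had 36.6, 38.2 and 36.9 TPM with guide 2 and 28.2, 29.4 and 28.2 TPM with the control guide in DMSO. PPP1R12C, which holds the AAVS site, had 9.11, 10.5 and 10.5 TPM with guide 2 and 5.10, 5.44 and 5.19 TPM with the control guide.

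Across all genes, on log2(TPM + 1) after unnamed and mitochondrial rows were left out, 12597 of 16694 genes tested differed between the libraries labelled guide 2 and the control libraries in DMSO (75.5% at an adjusted p under 0.05). Of these 8869 were higher (53.1% of genes tested) and 3728 were lower (22.3%). A 2-fold change or more was seen for 2612 higher genes (15.6%) and 630 lower genes (3.77%). The median gene was 0.27 higher on the log2 scale. List medians below are to be read against that value, and list counts against the shares of 53.1% higher and 22.3% lower. Counts of list members at least 2-fold higher or lower are to be read against 15.6% and 3.77%. When libraries were scaled by the median of gene ratios, 6727 genes were higher and 5704 lower, which is 54.1% higher in place of 70.4%, and with quantile normalization 5631 were higher and 6743 lower, or 45.5% higher. The filter on low values (1 TPM in at least 3 libraries) also counts here. It let in 1115 genes only through the libraries labelled guide 2, and 661 of those were among the 2612. Of the 15579 genes that the other libraries alone would have passed, 1951 rose and 630 fell at least 2-fold.

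The libraries labelled guide 2 in DMSO were like one another and unlike the rest. Their correlations of log2(TPM + 1) across genes were 0.9936 to 0.9941 among themselves and 0.8906 to 0.9205 with the other 15 libraries, which correlated at 0.9507 to 0.9958 with each other. They had 1407 to 1630 rows at 0 TPM, and the other 15 libraries had 3042 to 4498. Genes at 1 TPM or more numbered 15932 ± 66.6 with guide 2 and 14359 ± 43.2 with the control guide in DMSO (SD, n = 3 each, two-sided exact permutation p = 0.1, the smallest that 3 against 3 allows). The 50 most abundant genes held 26.3% ± 0.295 of TPM with guide 2 and 31.7% ± 0.118 with the control guide. Mitochondrial rows held 54.6% ± 4.79 of the deposited TPM with guide 2 and 54.5% ± 0.905 with the control guide (SD, n = 3 each, exact permutation p = 1.0). Mitochondrial ribosomal RNA rows, a part of these, held 12.05% ± 0.312 with guide 2 and 9.67% ± 0.103 with the control guide (SD, n = 3 each, exact permutation p = 0.1), and 9.18% to 10.8% over the other 15 libraries. All 3 guide 2 libraries thus lay above the rest on this measure, and its part in the results below was not tested. In bulk RNA, more or fewer cells of a kind and more or less RNA per cell cannot be told apart.

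Prostate lineage transcripts were present in both groups. FOXA1, a pioneer factor of prostate epithelium, had 707, 733 and 807 TPM against 716, 736 and 684 TPM in control cells. HOXB13, a homeobox gene of prostate lineage, had 841, 842 and 848 TPM against 705, 708 and 706 TPM. Both genes were high in each library, and both were named after their values were seen. KLK3, the gene of prostate-specific antigen, which androgen induces, was lower at 796, 818 and 796 TPM against 964, 1004 and 1004 TPM (log2 change −0.30, adjusted p = 0.00078). Of 21 luminal markers tested, 12 rose and 6 fell, close to the 53.1% and 22.3% of all genes. Their median log2 change was 0.42, against 0.27 over all genes, and 0.16 with median-of-ratios scaling. The keratin KRT8 and the zinc-binding secreted glycoprotein AZGP1 rose while the transporter SLC45A3 fell. Among 31 androgen-responsive genes 16 rose and 14 fell, from ALDH1A3 (retinoic acid synthesis, log2 change 2.15) and the transcription factor gene MAF (2.05) to SLC45A3 (−1.23).

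Defining leukocyte markers were near 0. PTPRC, which encodes the pan-leukocyte antigen CD45, was at most 0.00279 TPM in the libraries labelled guide 2 and listed at 0 in the 3 controls. The 14 leukocyte markers summed to 32.6 to 39.9 TPM with guide 2 and 3.41 to 4.18 TPM with the control guide. Only 3 of them passed the filter, and CD68, a lysosomal membrane glycoprotein gene that is also on in many non-blood cells, made up most of the sum (26.5, 26.8 and 32.9 TPM against 1.81, 1.54 and 1.15 TPM). The 11 prostate basal markers summed to at least 33.85 TPM in each library with guide 2 and 9.12 to 9.64 TPM with the control guide, and COL17A1, a hemidesmosome collagen, had 14.96, 15.65 and 15.17 TPM against 0.0122, 0.00922 and 0.00737 TPM. Of the 11, 6 were tested and 4 of these passed the filter only through the libraries labelled guide 2. Defining basal markers were near 0 with guide 2: TP63, the basal master regulator, was at 0.00542 to 0.00714 TPM, the keratin KRT5 at 0.112 to 0.310 TPM and KRT6A at no more than 0.0202 TPM, and in the controls none of the 3 was above 0.0322 TPM. The 11 neuroendocrine markers summed to 5.31 to 5.85 TPM with guide 2 and 9.89 to 10.8 TPM with the control guide. Only 3 of them were tested, with 1 higher and 2 lower, so the sum does not speak for the set. Those that failed the filter were at no more than 0.288 TPM. All of these but NEUROD1 were higher in every guide 2 library than in every control library, such as CHGA at 0.0457 to 0.0602 TPM against at most 0.0166 TPM. The guide 2 libraries had fewer rows at 0 TPM in general, 1407 to 1630 against 3847 to 4100 in the controls. The share of all such low genes that were higher was not computed, so this is not read as a result about these markers. The part of leukocyte, basal or neuroendocrine cells in the results below was not tested.

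**Figure D1:**
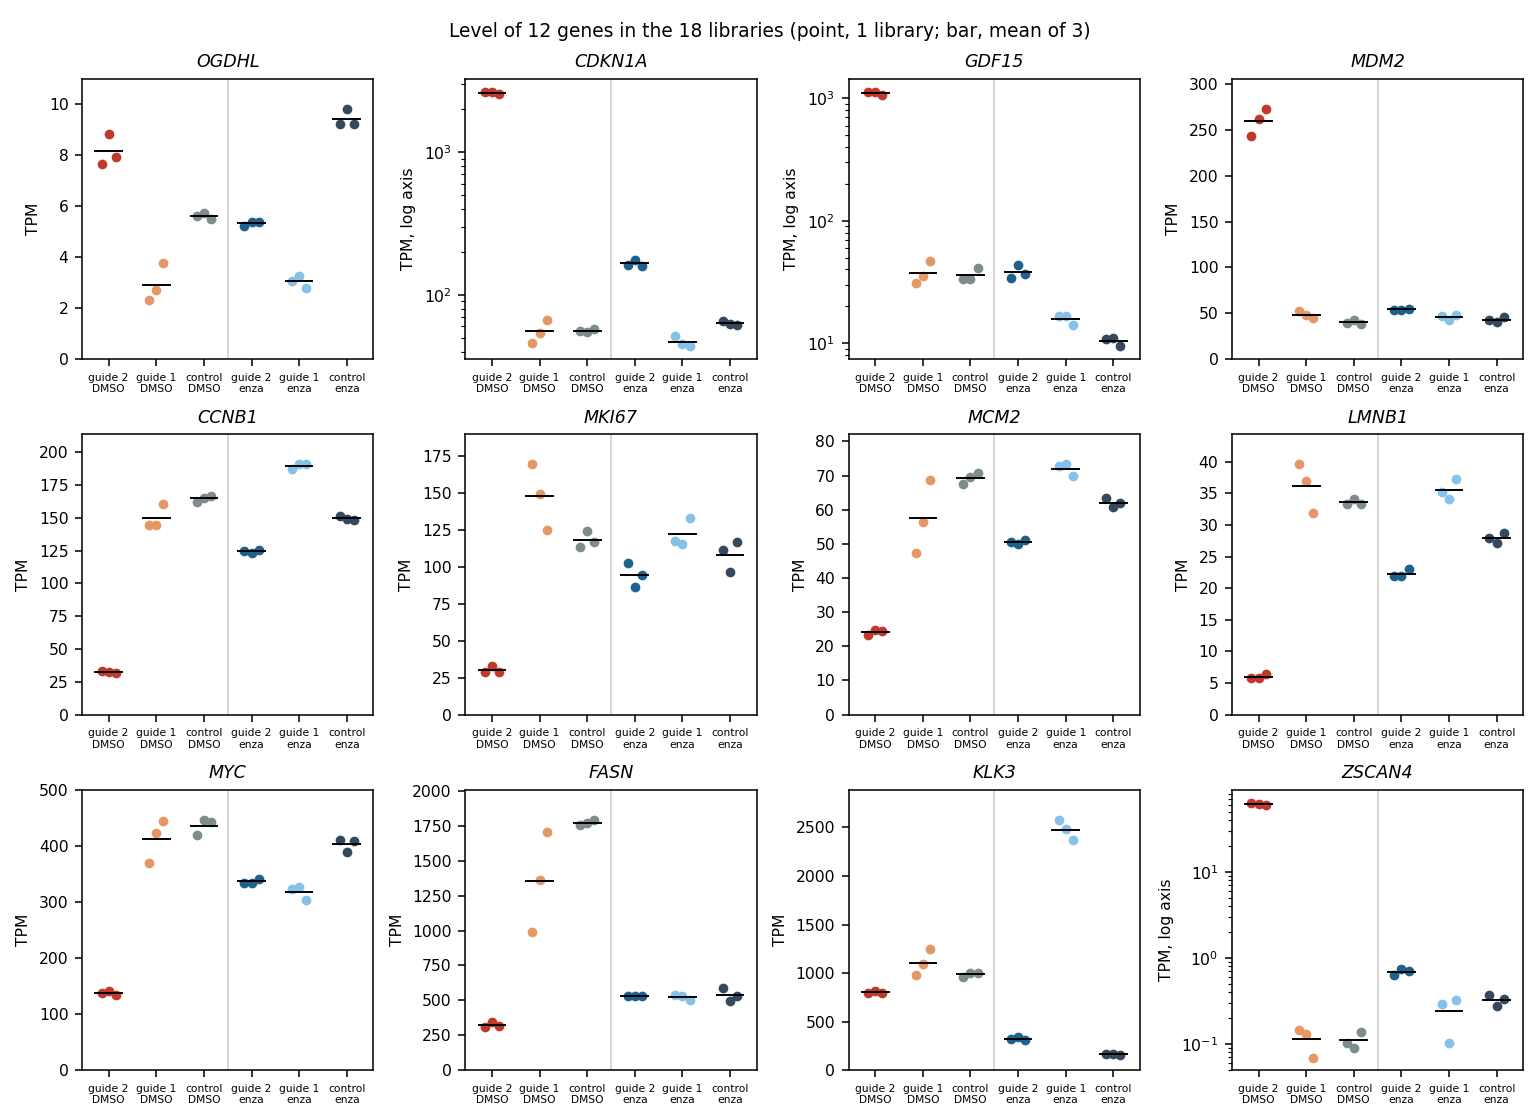
TPM of 12 genes in the 18 libraries (each point 1 library, each bar the mean of 3), for guide 2, guide 1 and control in DMSO and then in enzalutamide (enza), with a log axis where labelled. In DMSO, CDKN1A, GDF15, MDM2 and ZSCAN4 sit far above and CCNB1, MKI67, MCM2, LMNB1, MYC and FASN far below the other groups in the libraries labelled guide 2, while OGDHL is not lower there than in control.

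The p53 programme was up throughout. CDKN1A had 2638, 2655 and 2544 TPM in the libraries labelled guide 2, against 55.7, 55.1 and 57.2 TPM in the control libraries in DMSO, a log2 change of 5.52 (standard error 0.098, adjusted p = 1.2e-15). Every guide 2 library was far above every control library, and outside these 3 libraries the highest level was 177 TPM, with guide 2 in enzalutamide. TP53I3, a quinone oxidoreductase-like p53 target, had 413, 429 and 415 TPM against 2.145, 2.318 and 2.498 TPM (log2 change 6.98, adjusted p = 4.8e-18). GDF15, a secreted stress cytokine, had 1136, 1119.0 and 1070.1 TPM against 33.1, 33.1 and 40.7 TPM (log2 change 4.93). FDXR, the mitochondrial ferredoxin reductase, had 270.3, 279.6 and 263.7 TPM against 12.7, 12.1 and 12.4 TPM (log2 change 4.34).

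All 32 p53 targets on the list rose, and each of them rose at least 2-fold, where 15.6% of all genes tested did. Their median log2 change was 2.78, against 0.27 over all genes, and it was 2.54 with median-of-ratios scaling. MDM2, the ubiquitin ligase that degrades p53, had 243, 262 and 273 TPM against 39.88, 42.97 and 38.44 TPM. The antiproliferative gene BTG2 had 1076, 1081 and 1082 TPM against 108, 110 and 112 TPM, and PLK2, a polo-like kinase, had 202, 214 and 206 TPM against 14.7, 15.2 and 15.4 TPM. The smallest change on the list was that of PMAIP1, the BH3-only gene of NOXA, at 1.32.

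Cell-cycle inhibitor and cell death genes moved by member. Of 8 cyclin-dependent kinase inhibitor genes, CDKN2B, which encodes p15, had 35.8, 40.2 and 42.4 TPM with guide 2 and 0.595, 0.787 and 0.895 TPM with the control guide (log2 change 4.52), while CDKN3, a phosphatase gene expressed in mitotic cells, fell by 2.44. Among 14 BCL2 family genes 10 rose and 1 fell, where 53.1% of all genes rose and 22.3% fell, and the median log2 change was 0.60 (0.34 with median-of-ratios scaling). BBC3, which encodes the pro-death BH3 protein PUMA, had 29.84, 30.55 and 28.86 TPM against 4.174, 3.912 and 3.955 TPM, and BAX, a pore-forming death effector, had 140, 150 and 138 TPM against 28.5, 28.3 and 28.2 TPM. BCL2L1, which encodes the survival protein BCL-XL, also rose, at 58.4, 58.6 and 57.9 TPM against 15.5, 15.1 and 15.2 TPM.

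LMNB1, the gene of the nuclear lamina protein lamin B1 whose loss is a common mark of senescent cells, had 5.74, 5.86 and 6.41 TPM with guide 2 and 33.2, 34.1 and 33.3 TPM with the control guide (log2 change −2.30, adjusted p = 1.1e-13). Senescence secretory genes were largely silent. Of 27 on the list, 8 passed the filter, 3 of them only through the libraries labelled guide 2, so their calls (7 higher, 1 lower, where 53.1% of all genes were higher) are not read as support. IGFBP3, an insulin-like growth factor binding protein, had 191, 178 and 179 TPM against 10.6, 10.8 and 11.3 TPM.

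**Figure D2:**
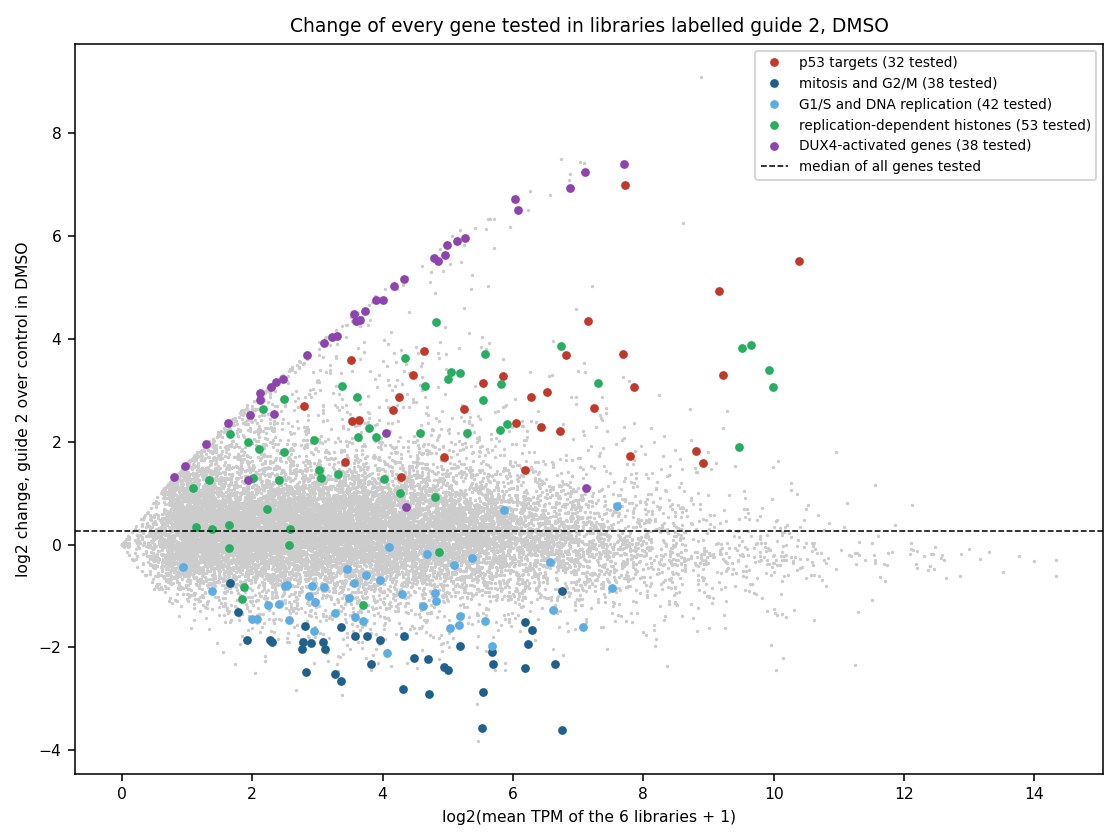
Log2 change of every gene tested, guide 2 over control in DMSO (vertical axis), against log2 of its mean TPM plus 1 over the 6 libraries (horizontal axis), with members of 5 lists coloured and the median of all genes dashed. The p53 targets lie above 1, mitosis genes lie below 0, and DUX4-activated genes lie along the upper edge, where a gene sits when its control level is near 0.

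Genes of mitosis were lower throughout. All 38 on the list fell, 36 of them at least 2-fold, where 22.3% and 3.77% of all genes did, and the median log2 change was −1.99. CDC20, the activator of the anaphase-promoting complex, had 16.2, 13.9 and 15.9 TPM in the libraries labelled guide 2 and 194, 197 and 203 TPM in the control libraries (log2 change −3.61, adjusted p = 7.1e-13). PLK1, the mitotic polo-like kinase, had 5.89, 6.59 and 5.99 TPM against 82.1, 84.0 and 84.4 TPM (log2 change −3.56). HMMR, a spindle-associated hyaluronan receptor gene, had 4.61, 4.97 and 5.89 TPM against 44.2, 46.8 and 44.7 TPM, and the ubiquitin-conjugating enzyme gene UBE2C had 9.92, 10.3 and 10.4 TPM against 80.3, 80.5 and 82.7 TPM. The groups were far apart for each of these genes. The cyclin B1 gene CCNB1 had 33.0, 32.1 and 32.0 TPM against 162, 165 and 167 TPM, and MKI67, the proliferation antigen gene, had 28.7, 32.8 and 28.8 TPM against 113, 124 and 117 TPM. The smallest changes belonged to CDC25C (−0.75) and CDK1 (−0.90).

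The promoters of CDC20, PLK1 and HMMR are shown because such genes share short elements near their start sites. Each line is the 250 bases before the annotated start, on the gene's strand, from RefSeq GRCh38.p14, with the letters TTTGAA or their reverse complement in capitals; this hexamer is the core of the cell cycle genes homology region, or CHR, which repressor complexes bind.
CDC20 (chr1:43358731-43358980, plus strand): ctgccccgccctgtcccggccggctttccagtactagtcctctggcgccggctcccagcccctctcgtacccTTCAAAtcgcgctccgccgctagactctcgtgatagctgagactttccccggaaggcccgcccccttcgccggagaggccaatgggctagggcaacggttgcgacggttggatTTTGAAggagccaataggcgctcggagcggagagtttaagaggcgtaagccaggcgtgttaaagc
PLK1 (chr16:23678639-23678888, plus strand): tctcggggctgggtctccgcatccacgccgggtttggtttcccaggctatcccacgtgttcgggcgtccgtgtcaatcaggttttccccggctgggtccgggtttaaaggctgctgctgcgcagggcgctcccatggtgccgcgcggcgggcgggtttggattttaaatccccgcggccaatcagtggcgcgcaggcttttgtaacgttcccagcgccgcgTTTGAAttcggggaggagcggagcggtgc
HMMR (chr5:163460382-163460631, plus strand): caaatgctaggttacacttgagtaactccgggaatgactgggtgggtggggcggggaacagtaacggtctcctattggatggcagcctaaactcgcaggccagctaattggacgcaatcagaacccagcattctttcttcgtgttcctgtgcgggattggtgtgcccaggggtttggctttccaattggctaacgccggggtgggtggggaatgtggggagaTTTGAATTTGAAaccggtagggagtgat
The hexamer lay 178 and 65 bases before the start in CDC20, 29 bases before it in PLK1, and at 28 and 22 bases in HMMR, where the copies are back to back. Searched on both strands, it was in 18 of the 32 mitosis genes that have a promoter in the table (56.2%), in 1 of 37 genes of the G1/S list and in 16.1% of the same window before all 27305 genes. CCAAT, the NF-Y motif, was in 26 of the 32 (81.2%) and in 10102 of the 27305 genes. The same letters were in 43 of 51 replication-dependent histone genes with a promoter (84.3%), and most genes of that list rose (below). CCAAT was therefore not particular to a list that fell. A match describes the letters of the window and is not a measured site.

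DNA replication genes fell too, by less. Of 42 genes of G1/S and DNA replication 39 fell, 22 of them at least 2-fold (3.77% of all genes), and 2 rose. The median log2 change was −1.02. MCM6, a subunit of the replicative helicase, had 5.36, 5.17 and 5.36 TPM with guide 2 and 25.9, 25.9 and 26.4 TPM with the control guide (log2 change −2.10). Other helicase genes moved alike, with MCM3 at 14.5, 15.3 and 15.5 TPM against 47.8, 49.2 and 48.7 TPM and MCM2 at 23.4, 24.7 and 24.6 TPM against 67.6, 69.6 and 70.8 TPM. TK1, thymidine kinase 1, had 19.46, 20.75 and 19.49 TPM against 82.03, 77.27 and 83.45 TPM. E2F1, a transcription factor gene that drives this set, had 18.6, 18.6 and 20.1 TPM against 51.3, 51.1 and 52.5 TPM.
The 2 that rose, named here for that reason, were PCNA, the sliding clamp of DNA polymerases, and TYMS, thymidylate synthase. PCNA had 247, 239 and 240.3 TPM with guide 2 against 142, 142 and 144 TPM, and TYMS had 71.0, 69.6 and 69.9 TPM against 43.6, 43.2 and 45.0 TPM. In the p53R2 gene RRM2B, a p53-inducible ribonucleotide reductase subunit, the level was 153, 165 and 168 TPM against 20.15, 21.24 and 18.02 TPM, while the S-phase subunit gene RRM2 was at 7.60, 7.99 and 7.95 TPM against 13.8, 14.0 and 13.9 TPM. Homologous recombination and crosslink repair genes followed replication, with 17 of 20 lower and 1 higher.
The E2F consensus core TTTCCCGC was in the promoters of 8 of 37 genes of the G1/S list (21.6%), 1 of 32 mitosis genes and 1.7% of all. It is shown in capitals in MCM3, 174 bases before the start.
MCM3 (chr6:52284743-52284992, minus strand): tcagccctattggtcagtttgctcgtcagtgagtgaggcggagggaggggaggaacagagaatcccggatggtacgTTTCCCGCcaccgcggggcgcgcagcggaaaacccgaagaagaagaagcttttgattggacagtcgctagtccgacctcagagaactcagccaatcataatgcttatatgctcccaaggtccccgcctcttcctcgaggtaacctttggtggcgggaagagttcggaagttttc

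Most replication-dependent histone genes, a list of core and linker H1 genes, went the other way from the replication genes with which they are normally coupled. Messages of the clustered, replication-dependent histone genes usually end in a stem-loop with no poly(A) tail and are made in S phase, so an mRNA-enriched library holds mainly their polyadenylated forms. Of 53 tested (of 57 in the table), 43 rose, 39 of them at least 2-fold (15.6% of all genes), and 2 fell. The median log2 change was 2.09. Their summed level was 8859 to 9515 TPM in the libraries labelled guide 2 and 1148 to 1212 TPM in the control libraries. H2BC4 had 53.1, 54.0 and 51.2 TPM against 1.78, 1.65 and 1.66 TPM (log2 change 4.32, adjusted p = 3.1e-16). H2BC8 had 199, 211 and 189 TPM against 14.21, 11.95 and 12.13 TPM. The near-identical H2A genes H2AC18 and H2AC19, whose reads cannot be assigned with certainty, had 1591, 1574 and 1362 TPM and 1444, 1428 and 1236 TPM with guide 2, against 99.8, 101 and 105 TPM and 99.4, 92.0 and 95.3 TPM. The 2 that fell were H4C3 (log2 change −1.17) and H4C1 (−1.06). Of the 53, 5 passed the filter only through the libraries labelled guide 2.

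Early embryonic genes of the DUX4 type were on in the libraries labelled guide 2. ZSCAN4, a zinc-finger gene of the cleavage-stage embryo, had 63.6, 62.2 and 59.3 TPM, against 0.102, 0.0887 and 0.138 TPM in the control libraries (log2 change 5.82, adjusted p = 5.7e-18). H3Y1, a primate-specific histone H3 variant gene, had 431, 438 and 372 TPM against 1.74, 1.54 and 1.13 TPM (log2 change 7.40). PRAMEF12 had 286, 267 and 266 TPM against 0.685, 1.16 and 0.627 TPM, TRIM49C had 133, 128 and 124 TPM against 0.206, 0.205 and 0.253 TPM, and MBD3L2, a methyl-binding-domain-like gene, had 249.1, 234.1 and 213.5 TPM against 0.988, 0.922 and 0.818 TPM. LEUTX, a paired-like homeobox gene, had 8.47, 7.70 and 7.02 TPM against 0.0294, 0.0312 and 0.0622 TPM. In each case every guide 2 library was far above every control library. ZSCAN4 and LEUTX passed the filter only through the libraries labelled guide 2, so their tests are partly set by that choice.

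Of the 51 DUX4-activated genes on the list, 47 were in the table and 38 of these passed the filter, 31 of them only through the libraries labelled guide 2, so no count of passing members is read as support. Over all 47, 38 were at 1 TPM or more in all 3 libraries labelled guide 2 and 5 in all 3 control libraries, while over all 26863 symbols the shares were 57.0% and 51.8%. Among the 9 that failed the filter, RFPL1 had 1.16, 0.935 and 1.82 TPM with guide 2 against 0.103, 0.0873 and 0.403 TPM, the homeobox genes DUXA and DUXB were at 0.335 to 0.708 TPM against 0 to 0.0896 TPM, and ARGFX and TPRX1 did not pass 0.0435 TPM. DUX4, named after its values were seen, had 0.292, 0.347 and 0.352 TPM in the libraries labelled guide 2 and was listed at 0 in all 3 control libraries. Its copies are near-identical and lie in repeat arrays, so its level is uncertain.

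Families of copies around these genes were on as well, and their single members share reads. The families were picked after the largest changes were seen. The 23 PRAMEF genes and pseudogenes of chromosome 1 summed to 941.9 to 1085 TPM with guide 2 and 3.06 to 3.29 TPM with the control guide. The 8 SSU72P copies, which resemble a phosphatase of RNA polymerase II, summed to 1812 to 2199 TPM against 2.65 to 5.17 TPM, and SSU72P4 had the largest change of any named gene, at 1035, 963 and 837 TPM against 0.948, 1.63 and 0.0143 TPM (log2 change 9.09). The 20 genes and pseudogenes from TRIM43 to TRIM53 summed to 686 to 745 TPM against 7.50 to 8.81 TPM, the 5 MBD3-like genes to 319 to 369 TPM against 0.933 to 1.17 TPM, and the 4 TAF11-like genes to 351 to 403 TPM against 1.87 to 2.84 TPM. In the other 12 libraries the highest of these 5 family sums was 20.34 TPM, that of the SSU72P copies.

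The promoters of PRAMEF12, H3Y1 and TRIM49B are shown because the letters CTAATCA, the end of the motif bound by DUX4, lie at a similar distance in all of them. Each line again gives 250 bases before the start on the gene's strand (RefSeq GRCh38.p14), with CTAATCA or its reverse complement TGATTAG in capitals.
PRAMEF12 (chr1:12773488-12773737, plus strand): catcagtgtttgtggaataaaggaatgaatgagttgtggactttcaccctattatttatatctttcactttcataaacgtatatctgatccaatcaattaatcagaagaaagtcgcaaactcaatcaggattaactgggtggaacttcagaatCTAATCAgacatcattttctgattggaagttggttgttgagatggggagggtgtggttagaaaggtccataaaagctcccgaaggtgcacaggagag
H3Y1 (chr5:17655850-17656099, minus strand): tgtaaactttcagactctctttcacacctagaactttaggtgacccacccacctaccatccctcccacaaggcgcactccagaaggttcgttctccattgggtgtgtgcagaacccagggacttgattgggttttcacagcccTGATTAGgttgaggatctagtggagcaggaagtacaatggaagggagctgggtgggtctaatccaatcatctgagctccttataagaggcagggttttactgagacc
TRIM49B (chr11:49028573-49028822, plus strand): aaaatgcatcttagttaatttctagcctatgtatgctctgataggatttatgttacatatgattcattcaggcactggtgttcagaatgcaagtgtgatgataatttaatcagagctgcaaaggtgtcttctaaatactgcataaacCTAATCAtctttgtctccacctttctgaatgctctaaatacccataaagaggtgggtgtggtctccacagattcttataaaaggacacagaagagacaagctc
The match lay 97, 107 and 103 bases before the start, in that order. It was present in 18 of the 41 list members that have a promoter in the table (43.9%) and in 1.94% of all 27305 genes, and many of the 18 are PRAMEF copies with related sequence. ZSCAN4 and TRIM43 have no match in this window, which says only that these letters are not there. The motifs were chosen after the changes were seen.

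**Figure D3:**
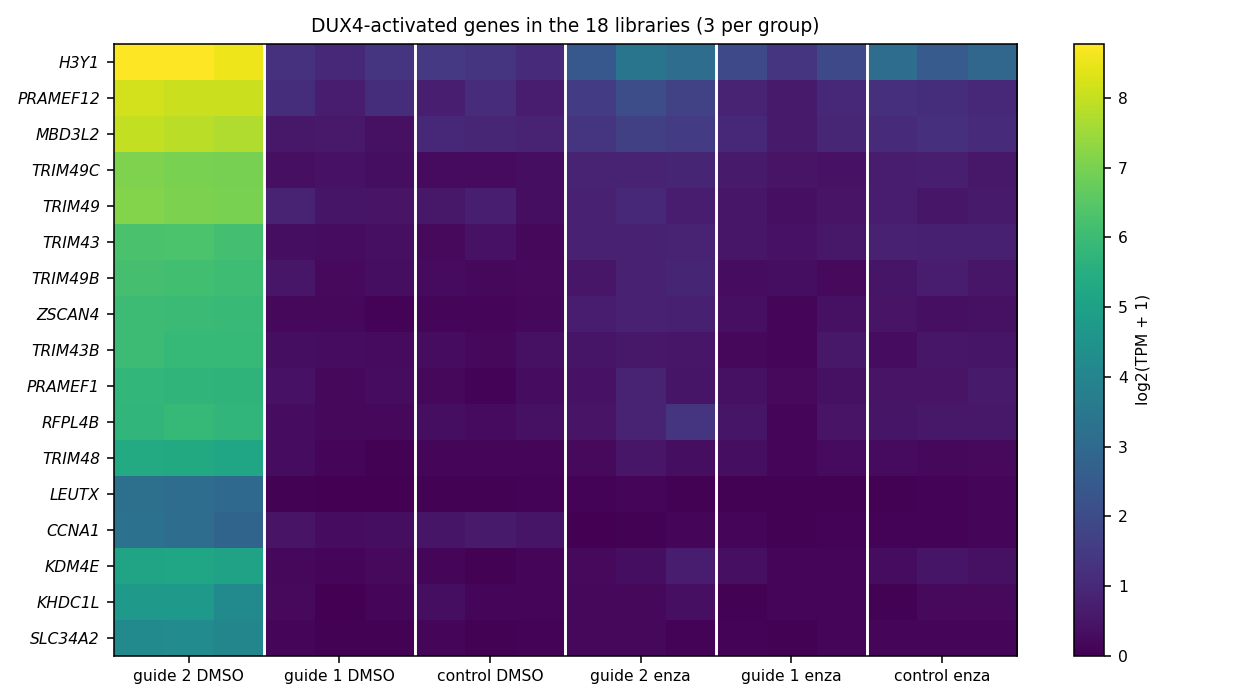
Log2(TPM + 1) of 17 DUX4-activated genes (rows) in the 18 libraries (columns, 3 per group, white lines between groups). The 3 columns labelled guide 2 in DMSO are brighter than the other 15 for every gene, with H3Y1 at up to 9.73 TPM in enzalutamide.

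Germline and pluripotency genes were looked at as further lists. Of 31 germline and cancer-testis genes 15 were tested, with 9 higher and 2 lower and a median log2 change of 0.17 beside the 0.27 of all genes, and of −0.01 and −0.02 under the other 2 scalings. MAGEC2, a cancer-testis antigen gene, had 71.5, 68.0 and 75.5 TPM with guide 2 and 14.75, 16.73 and 16.40 TPM with the control guide. Of 20 pluripotency genes 16 were in the table and 3 were tested, and the 2 that rose were KLF4, a zinc-finger factor also induced by stress (45.9, 47.0 and 47.6 TPM against 7.23, 7.96 and 7.76 TPM), and POU5F1, whose change was 0.24 and was −0.18 under quantile normalization. Among the 13 that failed the filter, SOX2 had 0.706, 1.60 and 1.60 TPM with guide 2 and 0, 0.0401 and 0.120 TPM with the control guide. KLF17, a factor of the early human embryo, had 0.394, 0.493 and 0.472 TPM against 0, 0 and 0.00616 TPM, and ESRRB had 0.254 to 0.277 TPM against at most 0.00105 TPM. DNMT3L had 0.138 to 0.271 TPM with guide 2 and at most 0.0349 TPM with the control guide, while NANOG stayed at no more than 0.0296 TPM in both groups. LIN28A overlapped, at 0.0258 to 0.0469 TPM against 0.0352 to 0.0479 TPM, and so did DPPA4 and L1TD1. These genes that failed the filter were named after their values were seen. The libraries labelled guide 2 had fewer rows at 0 TPM in general, so such low values are not read as a rise of the list. Repressors of DUX4 and of repeats had more members lower than higher, with 9 higher and 13 lower of 26, where 53.1% and 22.3% of all genes were. Their median log2 change was −0.15 against 0.27 over all genes, and −0.39 with median-of-ratios scaling. Those that fell at least 2-fold were UHRF1 (log2 change −1.45), CHAF1A (−1.04) and DNMT3B (−1.03), which take part in DNA methylation maintenance, chromatin assembly behind the replication fork and new DNA methylation. UHRF1 and CHAF1A are also on the G1/S list.

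The integrated stress response and the unfolded protein response had more members lower than higher. The integrated stress response, in which phosphorylated eIF2α lets ATF4 be translated, had 7 of 29 genes higher and 18 lower, with a median log2 change of −0.61 against 0.27 over all genes. Its amino-acid genes were among those that fell. PHGDH, the first enzyme of serine synthesis, had 8.65, 8.31 and 8.64 TPM with guide 2 and 27.6, 28.4 and 28.7 TPM with the control guide. Genes that rose included ATF3 (23.3, 22.9 and 21.8 TPM against 4.69, 4.93 and 5.03 TPM), PPP1R15A, the phosphatase subunit GADD34 (67.3, 72.4 and 69.4 TPM against 15.72, 15.95 and 16.05 TPM), DDIT3, the gene of CHOP (123, 128 and 112 TPM against 49.9, 53.6 and 51.8 TPM), and SESN2, which is on the p53 list too. Cytosolic tRNA synthetase genes were mostly lower, at 16 of 20, with 3 higher. In the unfolded protein response list 8 of 26 rose and 14 fell, with a median of −0.15 against 0.27. HSPA5, the chaperone BiP, had 3540, 3355 and 3394 TPM against 3639, 3697 and 3964 TPM (log2 change −0.13), and its change turned to 0.04 under quantile normalization.

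Heat shock and chaperone genes were divided at 9 higher and 9 lower of 22. The small heat shock genes CRYAB (20.3, 20.1 and 21.5 TPM against 1.84, 1.89 and 1.94 TPM) and HSPB8 (6.19, 6.49 and 6.49 TPM against 0.605, 0.544 and 0.643 TPM) rose, while HSPA1A overlapped between groups at 4.49, 4.32 and 3.84 TPM against 2.27, 3.90 and 2.10 TPM. Among 16 NRF2 targets, 7 rose and 6 fell, and HMOX1, heme oxygenase 1, had 24.3, 24.6 and 24.1 TPM against 3.709, 3.955 and 4.245 TPM. The 3 metallothionein genes tested fell.

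Immediate early genes were higher, at 18 of 21 (53.1% of all genes) with a median log2 change of 1.54 against 0.27, and MYC was the 1 that fell. FOS had 32.9, 33.1 and 33.5 TPM with guide 2 and 3.30, 4.41 and 5.52 TPM with the control guide. MYC, the growth regulator, had 138, 141 and 134 TPM against 420.3, 447 and 444 TPM (log2 change −1.66, adjusted p = 1.1e-12). Interferon-response genes had 14 of 22 higher and 3 lower, not far from the 53.1% and 22.3% of all genes. Their median was 0.49 against 0.27 over all genes, and it fell to 0.06 under quantile normalization and to 0.31 when scaled by the median of ratios. At least 2-fold 8 rose, and 4 did with median-of-ratios scaling. IFIT2, an RNA-binding antiviral gene, had 4.41, 4.68 and 4.53 TPM against 0.584, 0.559 and 0.586 TPM, and ISG15, a ubiquitin-like modifier, had 18.60, 18.03 and 15.31 TPM against 5.43, 5.14 and 5.41 TPM.

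**Figure D4:**
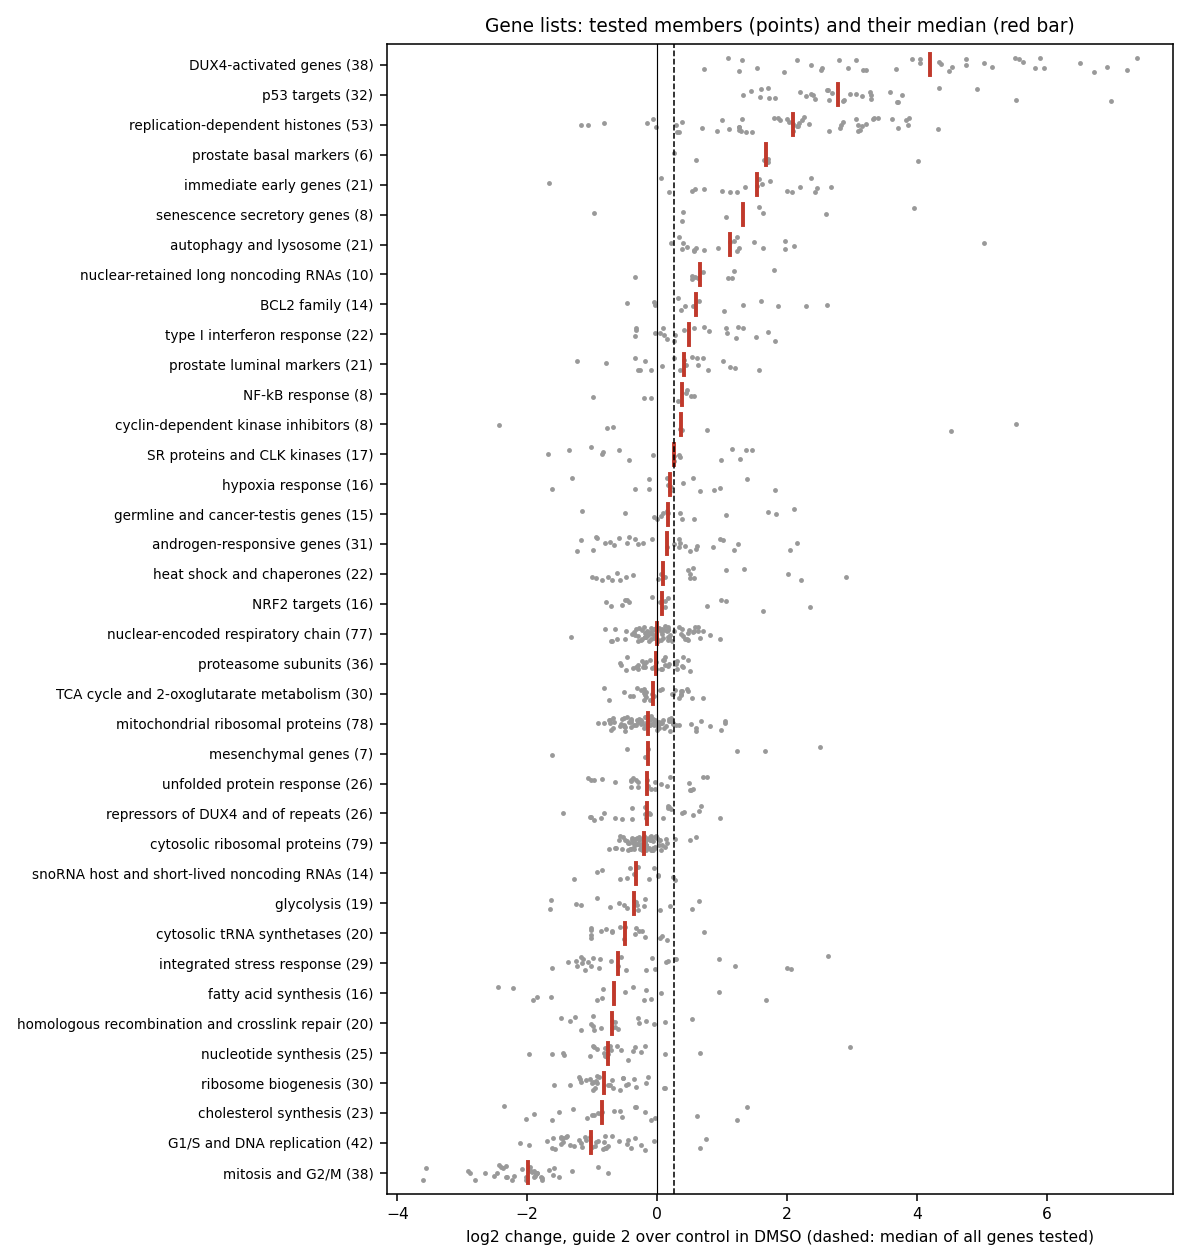
Log2 change of the tested members (points) of each list with at least 6 tested genes, guide 2 over control in DMSO, with the list median as a red bar and the number tested in brackets; the solid line is 0 and the dashed line the median of all genes. The p53 targets lie around 2.78, histone genes around 2.09 and mitosis genes around −1.99. The place of the DUX4-activated list is partly set by the filter, since 31 of its 38 tested members passed only through the libraries labelled guide 2.

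Genes of growth and lipid synthesis were lower. None of 30 ribosome biogenesis genes rose and 26 fell, with a median log2 change of −0.82, and the box C/D methyltransferase gene FBL had 29.6, 31.2 and 30.0 TPM against 95.25, 90.39 and 92.56 TPM. Nucleotide synthesis genes fell in 22 of 25 cases, PAICS of the purine pathway to 73.4, 70.9 and 77.7 TPM with guide 2 against 201, 203 and 204 TPM. Cytosolic ribosomal protein genes moved little, with 48 of 79 lower, 5 higher and a median of −0.21 against 0.27. Of 16 fatty acid synthesis genes 12 fell and 2 rose. FASN, fatty acid synthase, had 312, 347 and 315 TPM with guide 2 and 1757, 1768 and 1791 TPM with the control guide (log2 change −2.45, adjusted p = 3.6e-10), and SCD, the stearoyl-CoA desaturase, had 387, 405 and 414 TPM against 1807, 1882 and 1918 TPM. Of 23 cholesterol synthesis genes 17 fell and 3 rose. The sterol sensor gene INSIG1 had 105, 105 and 109 TPM against 543, 546 and 560.4 TPM. FASN was also low in enzalutamide, at 531 to 534 TPM with guide 2 and 496 to 592 TPM with the control guide.

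Central carbon metabolism changed by smaller steps. Glycolysis genes had 13 of 19 lower and 2 higher, with HK2, hexokinase 2, at 5.55, 5.83 and 5.90 TPM with guide 2 and 19.52, 19.55 and 21.38 TPM with the control guide. Among 30 genes of the TCA cycle and 2-oxoglutarate metabolism, the pathway of the targeted gene, 12 rose, 14 fell and none changed 2-fold, from CS, citrate synthase (log2 change −0.82), to SDHA, the flavoprotein of succinate dehydrogenase (0.70). Nuclear-encoded respiratory chain genes had 23 higher and 23 lower of 77, where 53.1% of all genes were higher and 22.3% lower, and a median of −0.0024 against 0.27.

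Lysosome and autophagy genes were higher in all 21 tested, 11 of them at least 2-fold, where 15.6% of all genes were. Their median log2 change was 1.13 against 0.27 over all genes, and it was 0.87 with median-of-ratios scaling. GPNMB, a lysosomal and melanosomal glycoprotein gene, had 93.8, 94.4 and 93.7 TPM against 1.87, 1.95 and 1.90 TPM (log2 change 5.03). CTSD, the protease cathepsin D, had 520.5, 520.8 and 505 TPM against 120.0, 117 and 121 TPM, and MAP1LC3B, an autophagosome marker gene, had 61.6, 57.9 and 61.2 TPM against 14.42, 14.99 and 14.53 TPM. The CTSD promoter holds CACGTG, the E-box letters within the motif of the lysosomal regulator TFEB, 47 bases before the start, in capitals below; 5 of 14 list members with a promoter had it (35.7%), as did 7.73% of all.
CTSD (chr11:1763928-1764177, minus strand): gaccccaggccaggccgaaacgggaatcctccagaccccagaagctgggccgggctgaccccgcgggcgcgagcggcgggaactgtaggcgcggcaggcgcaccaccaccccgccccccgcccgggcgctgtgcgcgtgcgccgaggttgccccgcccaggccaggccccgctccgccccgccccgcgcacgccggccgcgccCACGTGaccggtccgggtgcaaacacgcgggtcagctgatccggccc

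Nuclear long noncoding RNAs were higher in 9 of 10 cases and lower in 1, where 53.1% of all genes were higher. NEAT1, the scaffold RNA of paraspeckles, had 727, 800 and 853 TPM with guide 2 and 224, 243 and 217 TPM with the control guide. MALAT1 had 4125, 3854 and 4405 TPM against 1944, 1880 and 1749 TPM, but 5024, 4073 and 2651 TPM in guide 1 libraries in DMSO, which overlap the guide 2 range. By class, 28.6% of 1189 long noncoding genes, 14.7% of 11875 protein-coding genes and 13.2% of 3209 pseudogenes rose at least 2-fold. These shares include genes that passed the filter only through the libraries labelled guide 2, 1115 over all genes tested, of which 661 rose at least 2-fold. The classes were not split by this, so their difference may be partly set by the filter. Splicing factor genes were split, with SRSF2 lower (196.4, 225.5 and 227.5 TPM against 689.5, 719.2 and 666.4 TPM) and the kinase gene CLK1 higher (68.5, 80.4 and 78.7 TPM against 26.7, 30.0 and 29.3 TPM).

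Some genes were near silent in control cells and clearly present with guide 2. Of all 26863 symbols, 233 had at least 5 TPM in all 3 libraries labelled guide 2 and under 1 TPM in all 3 controls. Of these, 151 were under 1 TPM in all of the other 15 libraries. The reverse held for 2 symbols, PIF1, a DNA helicase, and RCN3, a calcium-binding protein of the endoplasmic reticulum. Outside the copy families, the named risers included CEL, the bile salt-stimulated lipase of exocrine pancreas, at 765, 788 and 765 TPM against 8.44, 9.54 and 9.49 TPM, a level that a near-identical pseudogene may share. RNASE7, an antimicrobial ribonuclease of skin, had 94.8, 97.7 and 96.9 TPM against 0.1983, 0.1575 and 0.2619 TPM. FAXDC2, a sterol-hydroxylase-like gene, had 128, 132 and 128 TPM against 0.388, 0.410 and 0.429 TPM, and the forkhead gene FOXS1 had 90.56, 107.5 and 96.96 TPM against 0.512, 0.232 and 0 TPM. Among the named fallers outside mitosis were FASN and EIF4EBP1, a translation inhibitor gene, which had 6.55, 6.09 and 6.40 TPM against 37.7, 37.6 and 38.4 TPM.

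Guide 1 in DMSO was set beside guide 2 in the same medium. Between guide 2 and guide 1 in DMSO 12801 genes differed (76.7%), with 8810 higher (52.8%) and 3991 lower (23.9%). At least 2-fold, 2764 were higher (16.6%) and 668 lower (4%). CDKN1A had 46.1, 54.3 and 67.1 TPM, ZSCAN4 had 0.146, 0.128 and 0.0691 TPM and CCNB1 had 145, 145 and 160.3 TPM in guide 1 libraries, all near the control levels. Other panel genes were not all near them. FASN had 989, 1363 and 1708 TPM and NEAT1 334, 339 and 353 TPM, on the guide 2 side of control. MKI67, at 169, 150 and 125 TPM, lay on the other side. Guide 1 libraries were also uneven, with 73.8%, 69.9% and 57.2% of deposited TPM in mitochondrial rows. The log2 difference of guide 2 over guide 1 was 5.54 for CDKN1A, 5.81 for ZSCAN4 and −2.18 for CCNB1. Of these, ZSCAN4 passed the filter only through the libraries labelled guide 2 in DMSO.

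In enzalutamide the libraries labelled guide 2 differed far less from their control. There 2820 genes passed (16.9%), with 1915 higher (11.5%) and 905 lower (5.42%), and at least 2-fold 33 rose (0.198%) and 12 fell (0.0719%). The effect of guide 2 itself differed between DMSO and enzalutamide for 10741 genes (64.3%), with 7599 more positive and 3142 more negative in DMSO. At least 2-fold these were 2211 (13.2%) and 521 (3.12%). CDKN1A had 162, 177 and 159 TPM with guide 2 and 65.3, 62.4 and 61.5 TPM with the control guide in enzalutamide, a log2 change of 1.38 (adjusted p = 3.2e-07), and the difference from its change in DMSO was 4.14 (adjusted p = 3.6e-12). Of the 32 p53 targets, 22 rose and 1 fell with guide 2 in enzalutamide, where 11.5% of all genes rose, and the median change was 0.32. The 1 that fell was PMAIP1. TP53I3 had 9.27, 10.4 and 8.97 TPM against 3.99, 3.93 and 4.74 TPM, and GPNMB had 7.81, 8.49 and 7.24 TPM against 2.17, 2.06 and 2.11 TPM. In both media these 3 genes were higher in every guide 2 library than in every control library.
Of the 38 mitosis genes, 29 fell and none rose in enzalutamide, where 5.42% of all genes fell, with a median log2 change of −0.26. CCNB1 had 125, 123 and 125 TPM with guide 2 and 152, 149 and 149 TPM with the control guide there. For all 38 mitosis genes the effect in DMSO was more negative than that in enzalutamide by the test of the difference (18.8% of all genes), and for all 32 p53 targets it was more positive (45.5% of all genes).
Embryonic genes stayed close to silent in enzalutamide. ZSCAN4 had 0.638, 0.737 and 0.695 TPM with guide 2 and 0.373, 0.272 and 0.327 TPM with the control guide, a log2 change of 0.35 (adjusted p = 0.00098), and 4 of the 38 tested DUX4-activated genes rose, about the 11.5% of all genes. Of the 38, 31 were tested only through the libraries labelled guide 2 in DMSO. H3Y1 overlapped, at 4.39, 9.73 and 7.84 TPM against 7.74, 4.72 and 6.43 TPM. KLK3 moved in opposite directions in the 2 media, since in enzalutamide it had 321, 338 and 315 TPM with guide 2 and 164, 168 and 157 TPM with the control guide, and the difference was −1.29 (adjusted p = 1.8e-08).

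**Figure D5:**
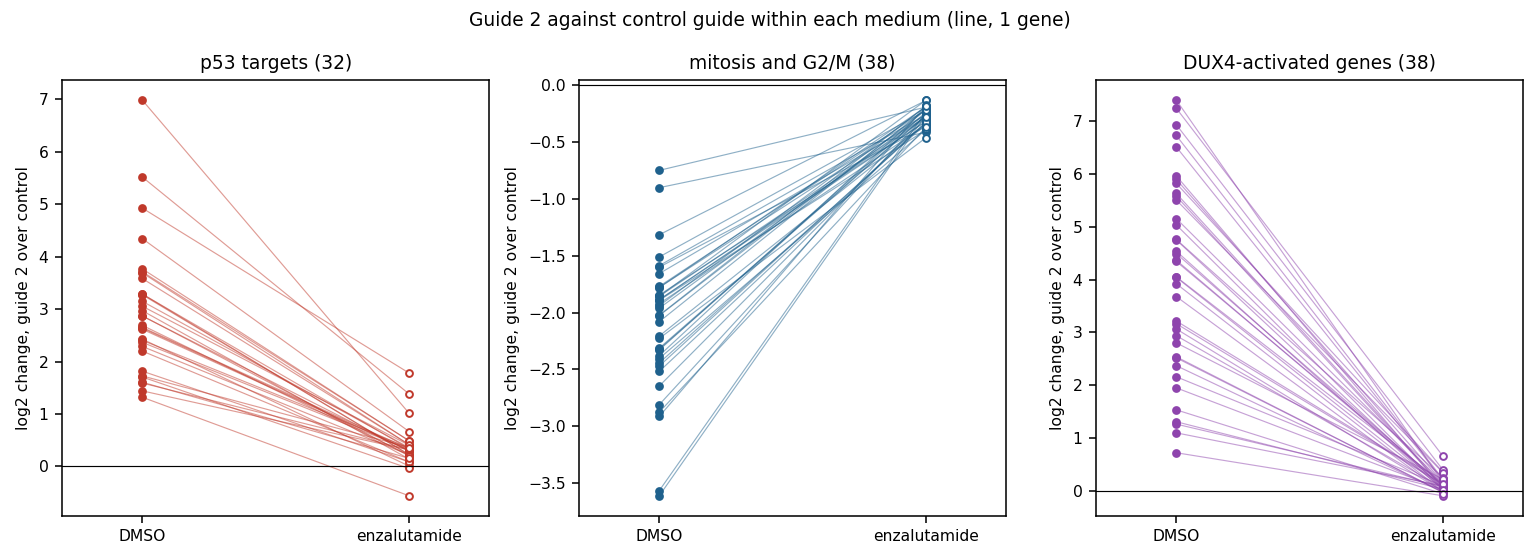
Log2 change of guide 2 over the control guide in DMSO (filled) and in enzalutamide (open), with a line for each tested gene of 3 lists. The p53 targets have medians of 2.78 and 0.32, and mitosis genes −1.99 and −0.26. Of the 38 DUX4-activated genes drawn, 31 passed the filter only through their level with guide 2 in DMSO, so their contrast between media is partly set by that choice.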

How the data were processed

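RNA of 18 libraries was measured by paired-end sequencing of KAPA mRNA HyperPrep libraries on a NovaSeq X Plus, per the labels' protocols, and the submitters' processing notes name STAR and GRCh38. The deposited values are TPM for 37347 rows, made by the authors with a quantifier and annotation not given in the sources used here. Depth is unknown, so no counting error could be set. The table holds 7254 values above 0 and under 1e-06 TPM, which come from estimation and not from whole reads.

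Rows without a gene name (10345) and mitochondrial rows (37) were left out, 3 symbols with at least 5 rows (69 rows) were dropped, 32 symbols with 2 to 4 rows were summed, and each library was rescaled to the same total. Genes with at least 1 TPM in at least 3 libraries were tested (16694 of 26863) with limma 3.58.1 in R 4.3.3 on log2(TPM + 1), a scale that understates changes of low genes. The fit had 6 group means over all 18 libraries, an intensity trend, 12 residual degrees of freedom and Benjamini-Hochberg adjustment over all genes tested, and "2-fold" means an absolute log2 change of at least 1 as well as an adjusted p under 0.05. The fit was tested on simulated data. Single library measures were compared by two-sided exact permutation. Tables were handled in Python 3.11.15 with pandas 2.3.3 and numpy 2.4.6.

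The libraries, gene lists and tests were chosen with earlier results of these data known. Named genes were the 20 largest rises and falls, up to 4 changed members per list with the largest changes, a panel, OGDH, OGDHL, PPP1R12C, NEAT1 and MALAT1; others are stated where chosen after their values were seen, among them H4C1, H4C3, PMAIP1, CDK1, CDC25C, PCNA, TYMS, H2AC19 and RCN3. A few genes are not reported here. Copy families and promoter motifs were also chosen then. Of the genes tested 16434 matched RefSeq by symbol. Replicate numbers did not pair libraries, so no block was used. Alternatives were the pseudocount, the low-value filter, kept mitochondrial rows, median-of-ratios and quantile scaling, array weights, a replicate block and leaving out each replicate, and, added after the data were seen, a fit without guide 1 in DMSO.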

Additional observations from a re-analysis of the deposited data

Results flagged for a closer look

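For 21 genes of the panel the effect of guide 2 over the control guide differed between DMSO and enzalutamide by limma's test of the difference (64.3% of all genes tested did so). A positive value means a more positive effect in DMSO. Among p53 targets the log2 difference was 4.14 for CDKN1A, 2.32 for MDM2, 3.15 for GDF15, 2.95 for BTG2 and 3.28 for PLK2. Among genes of proliferation it was −1.99 for LMNB1, −1.75 for MKI67, −2.05 for CCNB1, −1.71 for TOP2A, −1.19 for MCM2, −0.63 for RRM2 and −1.10 for E2F1. The stress genes ATF3 and DDIT3 had 1.97 and 1.37, and MYC had −1.40. KLK3 had −1.29 and FASN −2.44. NEAT1 had 1.17 and OGDHL 1.19. The embryonic genes ZSCAN4 and LEUTX had 5.47 and 3.08. Both passed the filter only through the libraries labelled guide 2 in DMSO, so their differences are partly set by that choice and are not read as support.

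Rows without a gene name were used in no comparison. Of these, 35 were at 2 TPM or more, as deposited, in all 3 libraries labelled guide 2 in DMSO and under 0.4 TPM in all 3 control libraries, and 1 row was the other way round.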

How the results depend on the processing

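The settings differ in how many genes they test: 16694 in the main fit, 26863 with no filter and 13416 with mitochondrial rows kept. Counts below are therefore not shares of the same set. The main count of 12597 genes changed in DMSO became 7920 with mitochondrial rows kept, and that of genes whose effect differed between media went to 5849 from 10741. Genes changed at least 2-fold numbered 1472 with a pseudocount of 5 and 2037 with mitochondrial rows kept, against 3242. Higher genes (8869 of 16694) became 13877 of 26863 with no filter, 5631 of 16694 with quantile normalization and 5500 of 13416 with mitochondrial rows kept. Lower genes (3728) became 5704 with median-of-ratios scaling, 6743 with quantile normalization and 2420 with mitochondrial rows kept. With quantile normalization OGDHL lost its call (log2 change 0.0985, adjusted p = 0.3), COL1A1 turned to −0.0479, HSPA5 to 0.0373, POU5F1 to −0.1758 and SYP to −0.1258. The difference for HSPA5 was −0.181 with median-of-ratios scaling. The cause was not tested.

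Leaving out 1 replicate at a time gave 11245 to 12171 genes changed, 2621 to 3303 at least 2-fold, 7684 to 8703 higher, 3468 to 3561 lower, 9407 to 10439 that differed between media and 11464 to 12724 between guides, and the OGDHL change was 0.4112 to 0.5034. The number of genes tested was then 15843 to 16683. Deviations of libraries with the same number correlated at 0.0733, 0.0230 and −0.0652, so they share only a number. With a replicate block 12482 genes changed, 8801 higher and 3681 lower. Array weights gave 13601, and the fit without guide 1 in DMSO, chosen after seeing the data, gave 13556.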

Other observations

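Late cornified envelope genes, skin barrier genes of chromosome 1, were picked after the largest changes were seen. The 6 summed to 114 to 119 TPM in the libraries labelled guide 2 in DMSO, to at most 0.18 TPM in the controls and to at most 1.26 TPM in the other 12 libraries. The 417 numbered zinc-finger genes tested had 269 higher and 70 lower, with a median log2 change of 0.32 beside the 0.27 of all genes. Of 121 olfactory receptor symbols, 9 were at 1 TPM or more in all 3 libraries labelled guide 2 in DMSO and 3 in all 3 controls. For 29 keratin-associated protein, protamine and crystallin symbols these numbers were 8 and 2. Over all 26863 symbols the shares were 57.0% and 51.8%. Members of both lists passed the filter in part only through the libraries labelled guide 2 (7 of 13 tested and 5 of 8 tested).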
